A study of Mus musculus with 16 samples.

Results

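The proteasome genes of mouse gastrocnemius, a mainly fast-fibred calf muscle, were described here as 48 genes across 16 RNA-seq libraries. They are the genes whose symbol begins with Psma, Psmb, Psmc, Psmd, Psme, Psmf or Psmg and a digit, with Adrm1 added, that reached 1 RPKM (reads scaled to gene length and to the library total) in at least 4 of the 16 libraries. Of 50 genes that met the name rule 48 passed this level, out of 10171 of 23440 listed genes that passed it in all. Psmb11, the thymus-specific catalytic subunit, had 0 reads in every library, and Psma8, a testis-specific alpha subunit, had 0 to 2 reads. One of the 48, Psmc3ip, met the rule by its symbol only. It encodes a partner of meiotic recombination proteins and is no proteasome subunit, and it had 16 to 32 reads and a mean of 1.46 RPKM.

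The libraries came from 4 groups of 4 male C57Bl6/J mice aged 20 weeks: Il13-/- trained, Il13-/- untrained, wild-type trained and wild-type untrained. Training was daily treadmill running for 5 weeks, and untrained mice of each genotype were its controls. The Il13-/- mice, called KO below, lack the cytokine interleukin-13, and WT stands for wild type. The labels name the genotype without saying how the allele was made, and each library has its own mouse identifier.

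The proteasome is the protease that degrades proteins tagged with ubiquitin in the cytosol and nucleus. Its barrel, the 20S core, is built of alpha rings that gate entry and beta rings that hold the catalytic sites. Its cap, the 19S particle, has a base of ATPases that unfold substrates and a lid that removes ubiquitin, and other caps and chaperones activate, inhibit or assemble the core. Muscle uses this route to remove contractile proteins during atrophy, and interferon induces the immunoproteasome forms Psmb8, Psmb9 and Psmb10, which take the places of the constitutive catalytic subunits.

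Stretches before 4 of the genes are shown because the results turn on Psmd8 and Adrm1, because Psmb5 and Psmb8 encode the constitutive and the immune form of the same catalytic site, and because they show each motif that was searched. They are RefSeq promoter windows of 300 bases on GRCm38.p6, from 250 bases before the gene's start to 50 after it, written 5′ to 3′ on the gene's strand. Capitals mark matches on either strand to TGACNNNGC, the antioxidant response element core bound by Nfe2l1 and Nfe2l2, to CCAAT, the box bound by NF-Y, and to TTCNNNGAA, the interferon-gamma activated site. The Psmd8 window, chr7:29180624-29180923 on the minus strand, held none of these letters. The Adrm1 window, chr2:180171338-180171637 on the plus strand, held the first at position -162 and the second, read on the same strand, at -65, counted from the gene's start. The Psmb5 window, chr14:54617946-54618245 on the minus strand, held the first at -47, and the Psmb8 window, chr17:34197945-34198244 on the plus strand, held the third at -97.
Psmd8: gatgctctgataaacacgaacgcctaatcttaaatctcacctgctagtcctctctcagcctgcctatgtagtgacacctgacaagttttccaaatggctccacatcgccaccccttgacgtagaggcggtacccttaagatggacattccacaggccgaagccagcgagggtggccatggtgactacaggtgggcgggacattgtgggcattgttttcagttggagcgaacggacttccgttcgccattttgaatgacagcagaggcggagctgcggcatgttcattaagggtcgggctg
Adrm1: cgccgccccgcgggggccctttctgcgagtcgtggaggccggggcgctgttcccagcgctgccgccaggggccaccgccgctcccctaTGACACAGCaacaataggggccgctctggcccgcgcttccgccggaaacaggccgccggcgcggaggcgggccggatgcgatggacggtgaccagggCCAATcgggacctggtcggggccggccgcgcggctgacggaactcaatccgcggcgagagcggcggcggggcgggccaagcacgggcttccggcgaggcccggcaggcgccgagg
Psmb5: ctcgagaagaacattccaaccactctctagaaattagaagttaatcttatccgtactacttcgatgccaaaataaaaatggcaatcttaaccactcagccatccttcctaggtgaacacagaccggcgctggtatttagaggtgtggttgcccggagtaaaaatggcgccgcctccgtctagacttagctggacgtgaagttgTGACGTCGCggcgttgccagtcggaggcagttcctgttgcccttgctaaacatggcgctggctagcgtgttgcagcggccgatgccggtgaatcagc
Psmb8: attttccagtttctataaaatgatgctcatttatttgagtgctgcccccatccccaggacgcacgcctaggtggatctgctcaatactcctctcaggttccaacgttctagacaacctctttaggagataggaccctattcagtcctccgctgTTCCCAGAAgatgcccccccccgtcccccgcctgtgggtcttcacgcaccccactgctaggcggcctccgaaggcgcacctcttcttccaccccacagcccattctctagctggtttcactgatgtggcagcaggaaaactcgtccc

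Among the 40 members with such a window within 100 bases of the deposited gene start, 7 (17.5%) held the antioxidant response core, against 15.2% of the windows of 7113 tested genes. These were Adrm1, Psmb5, Psmb6, Psmc6, Psmd9, Psmd12 and Psme4. The CCAAT box was in 13 members (32.5%), against 38.5% of tested genes, and the interferon-gamma site in 3 members (7.5%), Psmb8, Psmd2 and Psmg1, against 6.82%. The letter matches describe these windows and are not binding sites. The 48 genes lie on 16 chromosomes, 9 of them on chromosome 11 and 7 on chromosome 2. Psme1 and Psme2, the subunits of one activator ring, lie 5913 bases apart on chromosome 14, and Psmb9 and Psmb8 lie 10865 bases apart on chromosome 17.

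The reads behind these values could be recovered from the RPKM themselves, and gave 16307025 to 20074677 reads a library (median 17780533). The genes listed in the table held 75.6% to 83.5% of these totals. The share averaged 76.7% ± 1.27 in KO trained, 79.9% ± 1.95 in KO untrained, 78.6% ± 3.51 in WT trained and 82.3% ± 1.57 in WT untrained libraries (SD, n = 4 each), so RPKM of the listed genes also moves with this share. Il13 itself had 0, 1, 0 and 1 reads in KO trained libraries, 2, 1, 0 and 0 in KO untrained libraries and 0 in each WT library, so its reads do not check the genotype labels. Muscle fibre markers (Ckm, Acta1, Myh4 and Myh1) summed to between 35831 and 46621 RPKM in every library. The 5 T cell markers together stayed between 0.0194 and 0.290 RPKM and the 4 B cell markers between 0.135 and 0.459.

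Levels are given by role. The values that follow are means over 16 libraries and are scaled to gene length, so genes can be compared. In the 20S core the 7 alpha subunits ran from 36.004 RPKM for Psma5 to 87.9 RPKM for Psma6, a ratio of 2.44, and the 7 constitutive beta subunits from 59.1 RPKM for Psmb2 to 157 RPKM for Psmb7, which carries the trypsin-like site. Psmb5, the chymotrypsin-like site, had 84.0 RPKM and Psmb6, the caspase-like site, 84.9 RPKM. In the 19S base the 6 ATPases ran from 48.8 RPKM for Psmc4 to 90.4 RPKM for Psmc3. The 4 other base subunits ran from 52.7 RPKM for Psmd1, a scaffold, to 85.5 RPKM for Psmd4, a ubiquitin receptor. The 8 lid subunits that the name rule covers, which need not be the whole lid, spread the most. They ran from 27.1 RPKM for Psmd14, the deubiquitinating enzyme of the lid, to 133 RPKM for Psmd8, a ratio of 4.91.

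Regulators and assembly factors lay below every constitutive subunit of the core and cap, except Psme4. Psme4, the PA200 activator of the nucleus, had a mean of 39.97 RPKM, Psme1 and Psme2 of the interferon-inducible PA28 ring had 25.5 and 15.6 RPKM, and Psme3, the nuclear PA28 gamma, had 19.3 RPKM. Psmf1, an inhibitor of the core, had 4.34 RPKM. The 4 chaperones of core assembly ran from 4.54 RPKM for Psmg4 to 12.1 RPKM for Psmg2, and the 3 chaperones of base assembly from 4.08 RPKM for Psmd10 to 6.36 RPKM for Psmd5. The immunoproteasome subunits were the lowest of the subunits, with 3.56 RPKM for Psmb8, 1.92 RPKM for Psmb9 and 5.42 RPKM for Psmb10.

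**Figure D1:**
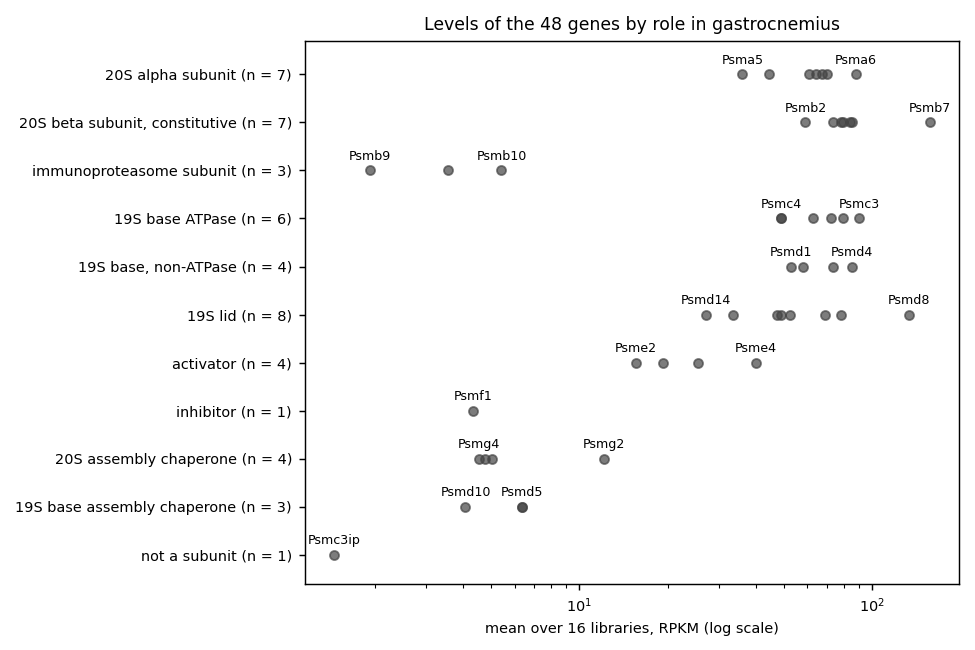
Mean level over the 16 libraries in RPKM, on a log axis, of each of the 48 genes, in rows by role with the number of genes. Constitutive core and cap subunits lie between 27.1 and 157 RPKM, and the immunoproteasome subunits between 1.92 and 5.42 RPKM.

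Reads bound the precision. Psmd8 had 2886 to 4141 reads in each library, Adrm1 1270 to 1667, Psmb9 17 to 40, Psmb8 50 to 111 and Psmb10 100 to 153. A gene on the opposite strand shares exonic sequence with 12 members, and a gene on the same strand with 3. Of the 48 members 10, Adrm1 and Psma5 among them, have a transcript of another gene at 95% identity or more over at least 200 bases, and how the counting shared such reads is not given in the sources used here. Psmd8 had no such overlap or copy.

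Training was compared with no training in each genotype and over both. Psmd8, known as Rpn12, a lid subunit that in yeast takes part in joining lid and base, fell with training over both genotypes, and so did Adrm1, known as Rpn13, a ubiquitin receptor of the base. These were 2 of 48 members at an adjusted p under 0.05 (limma, Benjamini-Hochberg over all 10171 genes), both lower, where 0.777% of all tested genes passed and 0.452% passed as lower. Among members 40 of 48 lay below 0 with a median log2 difference of -0.08, where 58.3% of all tested genes lay below 0 with a median of -0.02. No member passed within either genotype alone. Without WT trained 1 the count over both genotypes was 13 of 48, all lower, where 10.3% of all genes tested in that setting passed and 7.09% passed as lower.

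In KO trained libraries Psmd8 (chromosome 7, 29174187 to 29180673, minus strand, mm10) had 116, 118.4, 109.8 and 111 RPKM, and in KO untrained libraries 138, 138, 139 and 134 RPKM. In WT trained libraries it had 142, 128, 125 and 107 RPKM, and in WT untrained libraries 159, 152, 156 and 155 RPKM. Every trained library lay below every untrained library of its own genotype, and the untrained groups of both genotypes were tight while WT trained was wide. The means were 113.7 ± 4.10 in KO trained and 137.2 ± 2.43 RPKM in KO untrained, and 125.5 ± 14.3 in WT trained and 155.7 ± 3.07 RPKM in WT untrained (SD, n = 4 each). Over both genotypes the log2 difference was -0.29 (SE 0.05, fold 0.815, adjusted p = 0.0137 by limma). The adjusted p ran from 0.00111 to 0.0423 over the other settings fitted for this contrast. In WT alone the log2 difference was -0.32 (SE 0.07) with an adjusted p of 0.0508, which missed the threshold and ran from 0.00800 to 0.162 over the other settings. In KO alone it was -0.27 (SE 0.07) with an adjusted p of 0.148. The responses of KO and WT differed by 0.05 on the log2 scale (95% interval -0.15 to 0.24), within error.

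In KO trained libraries Adrm1 (chromosome 2, 180171588 to 180176283, plus strand, mm10) had 53.1, 52.0, 49.01 and 56.4 RPKM, and in KO untrained libraries 64.8, 59.6, 59.6 and 56.0 RPKM. In WT trained libraries it had 60.6, 54.1, 54.3 and 49.8 RPKM, and in WT untrained libraries 63.9, 66.1, 63.8 and 63.9 RPKM. The WT groups did not overlap, and 1 pair of KO libraries crossed, KO trained 4 and KO untrained 4. Over both genotypes the log2 difference was -0.21 (SE 0.04, fold 0.863, adjusted p = 0.0438 by limma). This call was close to the threshold. It was lost when any 1 of 13 of the 16 libraries was left out, with an adjusted p of up to 0.103 without KO trained 3, and it was kept without KO trained 4, KO untrained 4 or WT trained 1. Over all other settings the adjusted p ran from 0.00315 to 0.103. In WT alone the log2 difference was -0.24 (SE 0.06, adjusted p = 0.106) and in KO alone -0.19 (SE 0.06, adjusted p = 0.258).

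**Figure D2:**
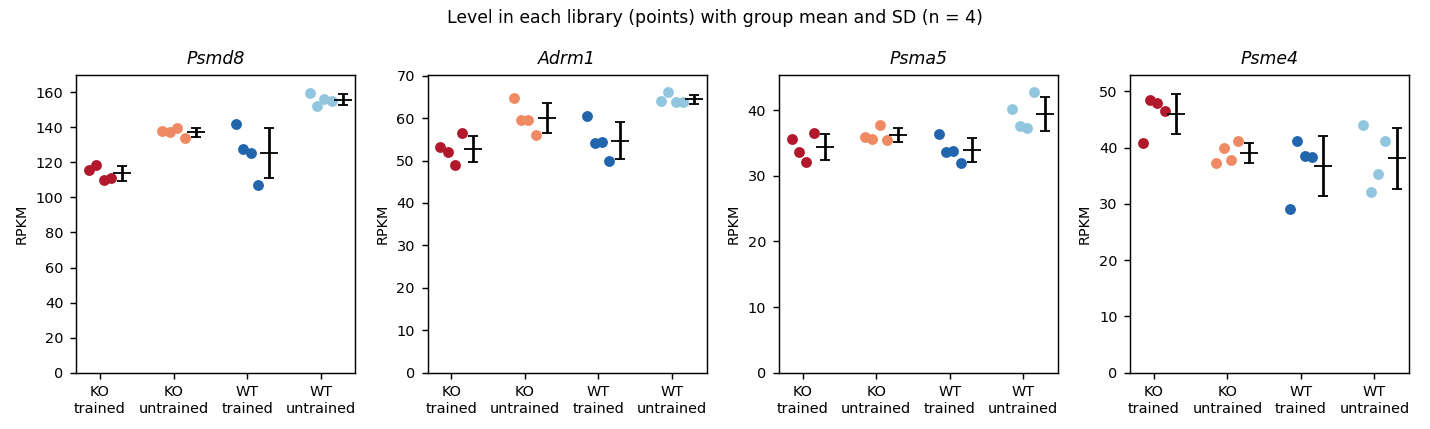
Level in RPKM of Psmd8, Adrm1, Psma5 and Psme4 in each library (points), with the group mean and SD (n = 4 each) beside them, for KO trained, KO untrained, WT trained and WT untrained mice. For Psmd8 every trained point lies below every untrained point of the same genotype, and for Psme4 the groups overlap.

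In WT muscle, training gave 0 of 48 members at an adjusted p under 0.05, where 0.187% of all tested genes passed. Without WT trained 1 it gave 5 members, all lower, where 2.69% of all genes tested in that setting passed and 2.02% passed as lower. At an unadjusted p under 0.05 there were 11 members, all lower, against 5.71% of all tested genes that were lower at that level. The trained and untrained libraries did not overlap for 6 members, all lower, against 2.62% of all tested genes. These were Psmd8, Adrm1, Psma5, Psma6, Psmb7 and the lid subunit Psmd13. Psma5, an alpha subunit, had 36.3, 33.7, 33.7 and 31.9 RPKM in WT trained libraries, and 40.1, 37.6, 37.2 and 42.7 RPKM in WT untrained libraries. Its log2 difference was -0.22 (SE 0.06, adjusted p = 0.122 by limma), against -0.07 in KO (adjusted p = 0.580). Psmb7 had 163, 152, 149.5 and 147 RPKM in WT trained libraries, and 172, 174, 168 and 167 RPKM in WT untrained libraries, with a log2 difference of -0.16 (adjusted p = 0.251).

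By role in WT, on the deposited scale, all 7 constitutive beta subunits lay below 0 (median log2 difference -0.12), as did 6 of 7 alpha subunits (-0.07), 5 of 6 ATPases (-0.09), 4 of 4 other base subunits (-0.14) and 7 of 8 lid subunits (-0.08). All 4 chaperones of core assembly lay below 0 too (-0.14), at levels where 1 read weighs more. The activators were split, 2 above and 2 below 0. When each library was rescaled to the reads in listed genes, 6 of 7 constitutive beta subunits, 3 of 7 alpha subunits, 4 of 6 ATPases, 4 of 4 other base subunits and 4 of 8 lid subunits lay below 0. On that scale 3 of 4 chaperones of core assembly and 0 of 4 activators did, and 29.6% of all tested genes did. On the deposited scale the median of the members in WT was -0.09, against 0.01 for all tested genes. There 40 of 48 members lay below 0, against 47.6% of all tested genes.

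In KO muscle, training likewise gave 0 of 48 members at an adjusted p under 0.05, where 0% of all tested genes passed. At an unadjusted p under 0.05 there were 8 lower members and 1 higher, against 8.9% and 4.85% of all tested genes. The KO groups did not overlap for 4 members, all lower, against 5.43% of all tested genes, namely Psmd8, Psmd2, Psmd3 and Psmd4. Psmd3, a lid subunit, had 42.7, 41.7, 44.0 and 46.7 RPKM in KO trained libraries, and 52.1, 50.03, 50.8 and 48.4 RPKM in KO untrained libraries (log2 difference -0.20, SE 0.06, adjusted p = 0.227 by limma). Psmd4 averaged 80.0 ± 3.32 RPKM in KO trained and 88.2 ± 1.62 RPKM in KO untrained libraries, a log2 difference of -0.14 (adjusted p = 0.275), and -0.14 in WT (adjusted p = 0.291). Over both genotypes Psmd4 (-0.14, adjusted p = 0.0755) and Psma5 (-0.14, adjusted p = 0.0949) came next after the called genes.

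The member that stood highest with training in KO was Psme4. It had 40.8, 48.5, 47.97 and 46.5 RPKM in KO trained libraries, and 37.3, 39.9, 37.8 and 41.2 RPKM in KO untrained libraries. The groups overlap through KO trained 1. Its log2 difference was 0.23 (SE 0.11, adjusted p = 0.350 by limma), and -0.05 in WT (SE 0.11, adjusted p = 0.886), where the libraries spread from 29.02 to 41.2 RPKM in WT trained and from 32.05 to 44.0 RPKM in WT untrained mice. The members' median in KO was -0.07, against -0.06 for all tested genes, with 36 of 48 below 0 against 64.9%. In KO muscle the members as a whole lay close to the median of all genes.

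**Figure D3:**
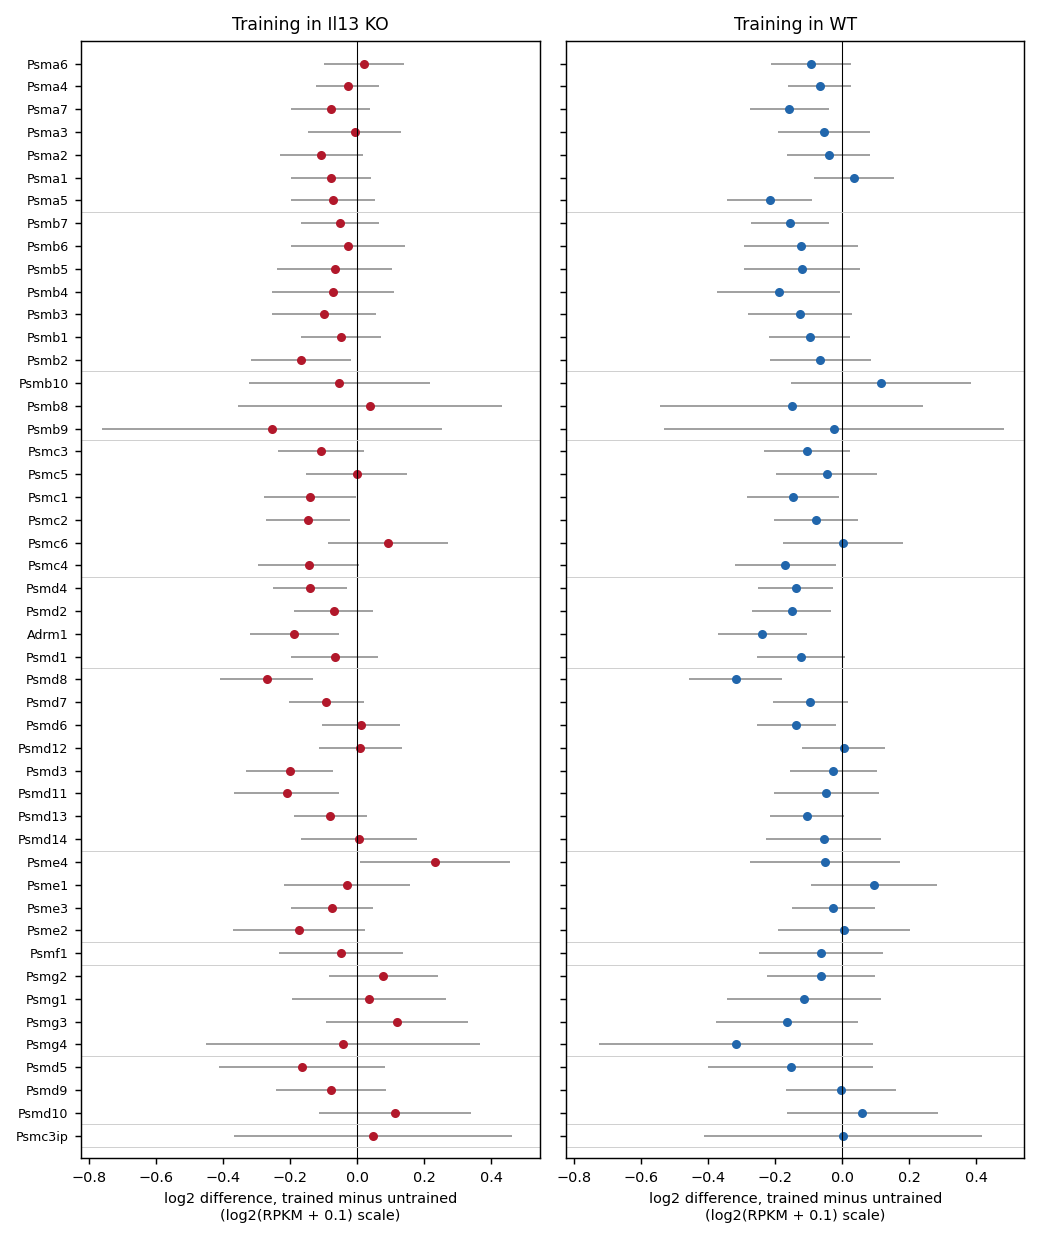
Log2 difference, trained minus untrained on the log2(RPKM + 0.1) scale, of each of the 48 genes with its 95% interval (limma), in KO and in WT muscle. Psmd8 lies lowest in both, at -0.27 in KO and -0.32 in WT, and 36 members in KO and 40 in WT lie below 0.

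The responses of both genotypes were then set against each other. None of the 48 members differed in response between KO and WT at an adjusted p under 0.05 (limma), where 0% of all tested genes passed, and 0 did so at an unadjusted p under 0.05, against 8.4% of all tested genes. The members with the smallest p were Psmd3 (log2 difference of responses -0.17, adjusted p = 0.615), Psmg3, a chaperone of core assembly (0.28, adjusted p = 0.620), and Psmd6, a lid subunit (0.15, adjusted p = 0.646). For Psmd3 the 95% interval was -0.36 to 0.01.

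The members' level was set beside the share of reads that listed genes held. The mean log2(RPKM + 0.1) over the 48 genes was 4.85, 4.85, 4.84 and 4.94 in KO trained and 4.98, 4.93, 4.94 and 4.87 in KO untrained libraries. It was 5.00, 4.90, 4.93 and 4.82 in WT trained and 4.99, 5.01, 4.94 and 5.07 in WT untrained libraries. WT trained 1, with 83.5% of its total in listed genes, had the highest mean of the trained libraries, and WT trained 4, with 76.0%, the lowest of all. In KO trained, KO untrained and WT trained mice the 4 libraries stood in the same order by the share as by the mean, and in WT untrained mice they did not.

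With each library rescaled to the reads in listed genes, a setting added after seeing the data, the median member difference with training was -0.03 in WT, against 0.07 for all tested genes, and -0.01 in KO, against 0.00. Then 26 of 48 members lay below 0 in WT, against 29.6% of all tested genes, and 26 in KO, against 49.4%. Over both genotypes 27 of 48 members lay below 0 when rescaled (median -0.02), against 36.7% of all tested genes (median 0.04). Among them were the constitutive beta subunits (7 of 7, median -0.04) and the base subunits other than ATPases (4 of 4, median -0.06). These 2 roles also lay wholly below 0 on the deposited scale, with quantile normalization and with voom. Of the alpha subunits 3 of 7 lay below 0 when rescaled and 3 of 7 with quantile normalization, against 7 of 7 on the deposited scale. Psmd8 and Adrm1 were still called over both genotypes on this scale, both lower, as 2 of 48 members. There 3.59% of all tested genes passed and 0.492% passed as lower. The rescaling also moved the calls over all genes. In WT it gave 199 higher and 35 lower, against 13 higher and 6 lower on the deposited scale. Over both genotypes it gave 315 higher and 50 lower, against 33 higher and 46 lower.

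**Figure D4:**
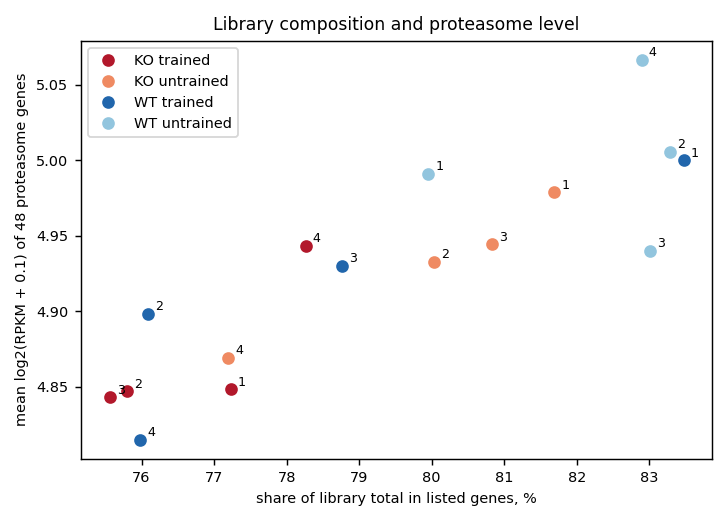
Mean log2(RPKM + 0.1) over the 48 genes (y) against the percentage of the library total held by listed genes (x), 1 point per library for KO trained, KO untrained, WT trained and WT untrained mice. The lowest mean, 4.82, belongs to WT trained 4 at 76.0%, and the highest, 5.07, to WT untrained 4 at 82.9%.

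Markers of muscle fibres and of tendon were also summed in each library. The 4 fibre markers summed to 36123 to 40004 RPKM in KO trained and 40970 to 41893 RPKM in KO untrained libraries, and to 35831 to 41111 RPKM in WT trained and 42176 to 46621 RPKM in WT untrained libraries. The 4 tendon markers summed to 57.4 to 140 RPKM in KO trained and 88.0 to 156 RPKM in KO untrained libraries, and to 111 to 158 RPKM in WT trained and 68.9 to 88.7 RPKM in WT untrained libraries. The fibre markers did not all move the same way. With training 3 of 4 lay below 0 and 1 above, in KO and in WT alike. In WT each of these had an unadjusted p under 0.05 (limma). Of the tendon markers 4 of 4 lay below 0 in KO (median log2 difference -0.25), and 3 of 4 lay above 0 in WT (median 0.74). Of all tested genes 64.9% lay below 0 in KO and 47.6% in WT. In WT 3 tendon markers were higher at an unadjusted p under 0.05 (limma), against 6.11% of all tested genes, and 0 were in KO. In the difference of responses, KO minus WT, 3 tendon markers were lower at that level, against 6.05%. Neither list had a member past the threshold with training, and none of these 8 markers was at 0 in every library. In bulk tissue fewer cells of a type and less RNA per cell cannot be told apart. The part of these markers in the proteasome results was not tested.

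The genotypes were compared within each training state. In untrained mice no member passed for KO against WT at an adjusted p under 0.05 (limma), where 0.0492% of all tested genes passed. At an unadjusted p under 0.05 there were 6 members, all lower, against 2.99% of all tested genes. The groups did not overlap for 4 members, all lower, against 2.37% of all tested genes. Psmd8 was one of them, with the values given above and a log2 difference of -0.18 (SE 0.07, adjusted p = 0.780). The others were constitutive beta subunits, Psmb1, Psmb6 and Psmb7. Psmb6 had 88.9, 81.1, 80.9 and 73.4 RPKM in KO untrained libraries, and 89.7, 97.4, 94.3 and 91.1 RPKM in WT untrained libraries (log2 difference -0.20, SE 0.08, adjusted p = 0.780). Psmb7 had 157, 152, 166 and 144.8 RPKM in KO untrained libraries and differed by -0.14 from WT (adjusted p = 0.780). All 7 constitutive beta subunits lay below 0 with a median of -0.14, which became -0.09 when rescaled and -0.07 with quantile normalization, again with 7 of 7 below 0. Of all members 37 of 48 lay below 0, against 48.6% of all tested genes, and 30 of 48 did when rescaled, against 34.9%.

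In trained mice, again, no member passed for KO against WT, where 0.0885% of all tested genes did, and no member's groups were apart, against 8.48% of all tested genes. Psme4 stood highest, at 45.9 ± 3.54 RPKM in KO trained and 36.8 ± 5.33 RPKM in WT trained libraries (log2 difference 0.33, SE 0.11, adjusted p = 0.229 by limma). Psmd3 (-0.19, adjusted p = 0.235 by limma) and Psmd9, a chaperone of base assembly (-0.18, adjusted p = 0.311), had the next smallest p after Psme4. Over both training states 0 of 48 members passed, where 0.0787% of all tested genes did, and Psmd8, Psmb3 and Psmc4 had the smallest p, each with a log2 difference of -0.16 and an adjusted p of 0.297. The comparisons of genotypes use the same libraries as those of training.

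The immunoproteasome subunits were low in every library. Psmb8, which replaces Psmb5, had 2.29, 3.08, 4.27 and 4.32 RPKM in KO trained libraries, and 2.999, 3.90, 3.47 and 2.91 RPKM in KO untrained libraries. It had 3.41, 2.55, 4.52 and 3.67 RPKM in WT trained libraries, and 4.13, 3.60, 3.47 and 4.31 RPKM in WT untrained libraries. The groups overlap, and KO trained is the widest. As a share of the summed RPKM of Psmb8 and Psmb5, Psmb8 held 2.72% to 5.34% over the 16 libraries, with a median of 3.94%.

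Psmb9, which replaces Psmb6, held 1.35% to 3.14% of its pair, with a median of 2.16%. It averaged 1.74 ± 0.611 RPKM in KO trained, 2.02 ± 0.324 in KO untrained, 1.94 ± 0.494 in WT trained and 1.99 ± 0.601 in WT untrained libraries. Psmb10, which replaces Psmb7, held 2.52% to 4.34% of its pair, with a median of 3.18%. It averaged 4.99 ± 0.275 RPKM in KO trained, 5.21 ± 0.758 in KO untrained, 5.97 ± 1.02 in WT trained and 5.50 ± 0.882 in WT untrained libraries.

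No immunoproteasome subunit passed with training in either genotype. For Psmb8 the log2 difference was 0.04 in KO (95% interval -0.36 to 0.43) and -0.15 in WT (-0.55 to 0.24). For Psmb9 it was -0.25 in KO (-0.76 to 0.25) and -0.03 in WT (-0.53 to 0.48), and for Psmb10 -0.05 in KO (-0.32 to 0.22) and 0.12 in WT (-0.15 to 0.38). The difference measured for Psmd8 in KO lies within the KO intervals of Psmb8, Psmb9 and Psmb10. That of Psmd8 in WT lies within the WT intervals of Psmb8 and Psmb9, and outside the WT interval of Psmb10. The intervals that hold the Psmd8 value do not exclude a difference of that size. Exons of Psmb9 overlap those of Tap1, the peptide transporter, on the other strand, and whether strand was used in counting is not given in the sources used here.

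**Figure D5:**
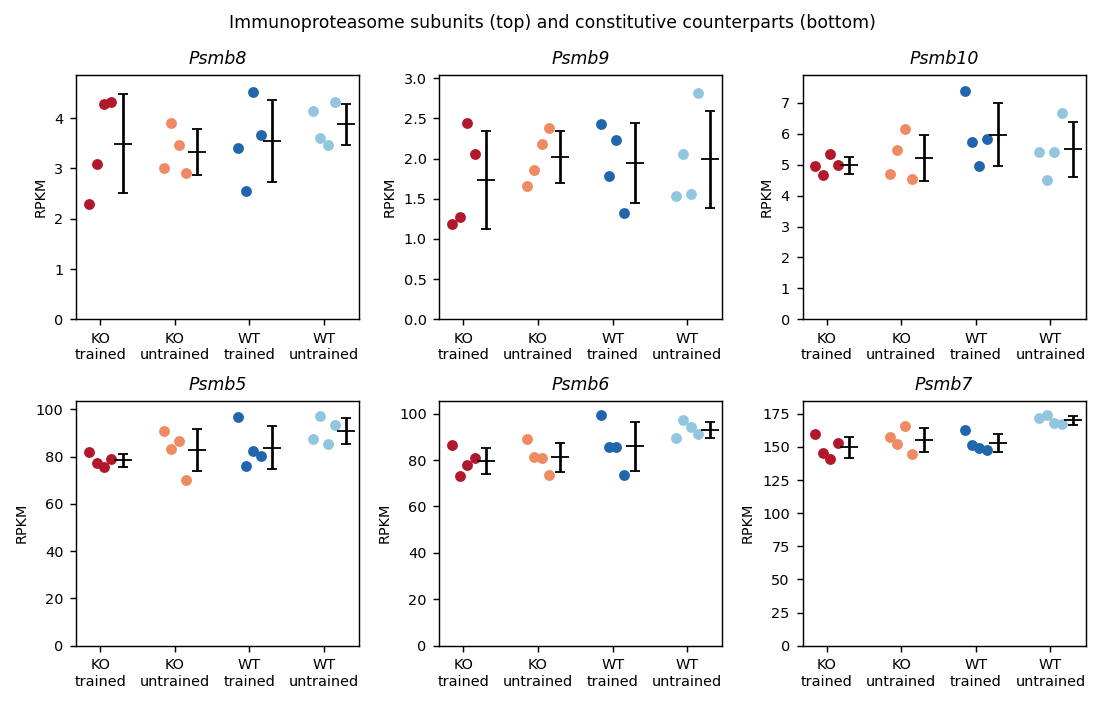
Level in RPKM of the immunoproteasome subunits Psmb8, Psmb9 and Psmb10 (top) and their constitutive counterparts Psmb5, Psmb6 and Psmb7 (bottom) in each library, with group mean and SD (n = 4 each). The immune forms lie between 1.18 and 7.39 RPKM, the constitutive ones between 70.1 and 174 RPKM.

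Marker genes of leukocytes and macrophages were also examined in the bulk RNA. The 7 leukocyte markers summed to 12.9, 12.9, 18.4 and 27.3 RPKM in KO trained libraries, and to 16.4 to 28.2 RPKM in KO untrained libraries. They summed to 16.3 to 22.5 RPKM in WT trained and 13.3 to 27.2 RPKM in WT untrained libraries. With training in KO all 6 leukocyte markers and all 8 macrophage markers that were tested lay below 0 (medians -0.27 and -0.24), and in WT 4 of 6 and 1 of 8 did. Of all tested genes 64.9% lay below 0 in KO (median -0.06) and 47.6% in WT (median 0.01). No marker of either list passed, none was at 0 in every library, and their part in the levels of Psmb8, Psmb9 and Psmb10 was not tested. Of 11 genes of antigen presentation by MHC class I and of interferon signalling, 10 were tested and 0 passed with training over both genotypes. B2m, the light chain of MHC class I, averaged 77.3 ± 12.5 RPKM in KO trained and 98.0 ± 7.89 RPKM in KO untrained libraries (log2 difference -0.35, adjusted p = 0.197 by limma). It averaged 90.7 ± 6.78 RPKM in WT trained and 94.1 ± 8.43 RPKM in WT untrained libraries (log2 difference -0.05, adjusted p = 0.880 by limma). With training 9 of the 10 tested genes of this list lay below 0 in KO and 4 of 10 in WT, against 64.9% and 47.6% of all tested genes.

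The activators that belong with the immune forms had more reads than those forms, 386 to 517 a library for Psme1 and 229 to 310 for Psme2. Psme1 had 26.5, 22.9, 23.0 and 26.3 RPKM in KO trained libraries, and 24.9, 25.4, 28.6 and 22.3 RPKM in KO untrained libraries. It had 32.5, 24.9, 25.5 and 24.9 RPKM in WT trained libraries, and 24.3, 25.1, 24.5 and 26.3 RPKM in WT untrained libraries. Psme2 averaged 14.7 ± 0.921 RPKM in KO trained, 16.6 ± 1.93 in KO untrained, 15.6 ± 1.19 in WT trained and 15.5 ± 1.86 in WT untrained libraries. Groups overlap in every comparison for both genes. Psme2 has a near-identical copy, Psme2b, with which its reads could be shared.

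Genes that act with the proteasome were read from lists, over both genotypes, where 0.777% of all tested genes passed with training, 0.452% passed as lower and 58.3% lay below 0. Of 14 tested proteasome-associated genes, such as the deubiquitinases Usp14 and Uchl5 and the core chaperone Pomp, 0 passed with training over both genotypes, with a median log2 difference of 0.01. Of 14 genes that regulate proteasome transcription 1 passed, lower, namely Mafg, a small Maf partner of Nfe2l1. Mafg averaged 11.3 ± 0.961 RPKM in KO trained and 12.5 ± 0.637 RPKM in KO untrained libraries, and 9.67 ± 0.887 RPKM in WT trained and 12.5 ± 0.889 RPKM in WT untrained libraries. Its log2 difference over both genotypes was -0.25 (adjusted p = 0.0485 by limma, up to 0.110 over other settings). Nfe2l1, the transcription factor that raises proteasome genes when proteasomes are inhibited, averaged 135.8 ± 6.63 RPKM in KO trained and 150.1 ± 8.48 RPKM in KO untrained, and 154 ± 14.8 RPKM in WT trained and 154 ± 7.23 RPKM in WT untrained libraries (log2 difference -0.07, adjusted p = 0.439).

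Of 5 tested ubiquitin and ubiquitin-activating genes 1 passed, lower, namely Ubb, a polyubiquitin gene. Ubb averaged 519 ± 25.9 RPKM in KO trained and 621 ± 19.8 RPKM in KO untrained libraries, and 570.5 ± 68.7 RPKM in WT trained and 654 ± 36.7 RPKM in WT untrained libraries. Its log2 difference over both genotypes was -0.23 (adjusted p = 0.0486 by limma, up to 0.110 over other settings). The calls of Mafg and Ubb were each lost without most single libraries, 13 of 16 for Mafg and 15 of 16 for Ubb. With no filter on low values both were lost as well (adjusted p = 0.0820 for Mafg and 0.0799 for Ubb by limma). The call of Mafg was also lost with quantile normalization (0.0545), voom (0.0519) and rescaling (0.0531). Of 13 tested ubiquitin ligases of muscle 0 passed, with 10 below 0. Trim63, known as MuRF1, averaged 101.9 ± 22.0 RPKM in KO trained and 136 ± 31.7 RPKM in KO untrained libraries, and 101.9 ± 19.3 RPKM in WT trained and 145.5 ± 29.2 RPKM in WT untrained libraries (log2 difference -0.46, adjusted p = 0.1003). Fbxo32, known as atrogin-1, had a log2 difference of -0.19 (adjusted p = 0.406). The 8 subunits of the cytosolic chaperonin, another ring-shaped machine, had a median of 0.01, with 4 below 0 and 0 called.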

How the data were processed

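RNA of each gastrocnemius was made into stranded libraries of mRNA, per the labels' protocols. The deposited values are RPKM computed by the authors, and mm10 is the genome build that the submitters' processing notes name. Which aligner, counter and strand setting produced them is not stated there. All 16 value columns were assigned through mouse identifiers.

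The design assumed counts with a fallback for RPKM, and the fallback was used: log2(RPKM + 0.1), genes at 1 RPKM or more in at least 4 libraries, and limma 3.58.1 with trend and robust moderation (R 4.3.3, statmod 1.5.0) over all 16 libraries with 1 mean per group. Of 7 contrasts, those over both genotypes or both training states are averages. P-values are two-sided, adjusted by Benjamini-Hochberg over the genes tested, with a threshold of 0.05. Log2 differences use that pseudocount, so changes of low genes are understated.

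Whole reads were recovered by solving gene lengths and library totals from RPKM steps. For tested genes 100% of values came out whole within 0.01 read. They served for depth and for voom, an alternative.

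On simulated data for training in WT (10076 genes) the fit recovered 28% of genes changed 1.25-fold and 81.6% of those changed 1.5-fold, and called 7 of 9878 unchanged genes. The simulation used 1 assumed dispersion, 0.01, for all genes, and no change under 1.25-fold. Its median SE was 0.117, against 0.103 for all tested genes and 0.0711 for the members. The rates are therefore not those of the members.

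The members and lists were chosen with earlier results of these data known. The text names members called in a contrast, or the 3 with the smallest p where none was, the immunoproteasome subunits with their counterparts, Psme1, Psme2 and Adrm1, and the highest and lowest of each role. Psma5, Psma6, Psmb1, Psmd2, Psmd4 and Psmd13 in the training and genotype comparisons, Psme4 in training, and the list genes were chosen after their values were seen. Overlaps and near-identical transcripts come from GENCODE M21. Python 3.11.15, NumPy 2.4.6, pandas 2.3.3 and matplotlib 3.10.9 were used.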

Additional observations from a re-analysis of the deposited data

Results flagged for a closer look

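In 3 of 72 groups of 4 libraries, taken over 18 members, 1 library stood apart from the other three by more than Dixon's 95% limit, where chance gives about 1 in 20. Psmd6 had 64.6 RPKM in KO trained 3, against 69.8 to 70.2 RPKM in the other KO trained libraries. Psme1 had 32.5 RPKM in WT trained 1, against 24.9 to 25.5 RPKM in the other WT trained libraries. Adrm1 had 66.1 RPKM in WT untrained 2, against 63.8 to 63.9 RPKM in the other WT untrained libraries.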

How the results depend on the processing

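The 26 other settings were 16 that left out 1 library and 10 others. A fit to only the groups compared, 1 of the 10, was made only for contrasts within 1 genotype or 1 training state. Over both genotypes Psmd8 was called in every setting fitted for that contrast. The count of members called with training over both genotypes, 2, became 1 with no filter, 1 with the replicate block and 13 with weights per library. It ran from 1 to 13 when 1 library was left out, with 13 without WT trained 1. Of all genes tested in each setting 0.777% passed in the main fit, 0.305% with the block and 10.3% without WT trained 1. The block ended the call of Adrm1 (adjusted p = 0.0677) and no other call of a member, and it ended those of Mafg (0.0771) and Ubb (0.0808). Deviations of libraries with the same number correlated at 0.149, 0.191, 0.442 and 0.0523 between KO trained and KO untrained, and between -0.182 and 0.109 in the other comparisons, so not every pair was over 0.1 and the numbers were not taken to pair the samples. In WT the count of 0 became 1 with log2(RPKM + 1), 1 with a filter at 5 RPKM, 1 when rescaled, 2 with quantile normalization, 2 with voom and 6 with weights per library. It ran from 0 to 5 without 1 library, with 5 without WT trained 1. Of all genes tested in each setting 0.187% passed in WT in the main fit, 2.3% when rescaled and 2.69% without WT trained 1. In KO the count of members became 1 with weights. For weights, voom and quantile normalization the share of all genes called is not given here. Counts of members without such a share are not read as results about the members. All genes called ran from 0 to 272 in WT and from 18 to 1048 over both genotypes without 1 library. The median over members moved to -0.0266 in WT, -0.0104 in KO and -0.0161 over both genotypes when rescaled, and to -0.00472 for training in KO and 0.00850 for KO against WT in trained mice with quantile normalization. The cause was not tested for any of these. Some log2 differences within error changed sign. Psme4 in WT became 0.00497 with weights and 0.0148 when rescaled, and ran from -0.132 to 0.0570 without 1 library. Psmb10 became 0.00425 in KO when rescaled and -0.0156 in WT with weights, and ran from -0.117 to 0.0288 in KO. Psmb8 in KO became -0.0489 with weights and ran from -0.0782 to 0.217. Psmb9 in WT became 0.0381 when rescaled and ran from -0.141 to 0.148. The difference of responses of Psmd8 ran from -0.0267 to 0.109, and Adrm1 for KO against WT in trained mice became 0.0168 with quantile normalization. Psmb9 had 17 to 40 reads a library.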
